A study of Drosophila melanogaster with 3 samples.

Results

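Trithorax group proteins keep developmental genes active, and they do so in part by modifying histones and in part by moving nucleosomes. Among the genes described here, trx, trr and ash1 encode histone methyltransferases, while brm, mor, osa and Snr1 encode subunits of the Brahma complex, the SWI/SNF-type nucleosome remodeller of Drosophila. Binding of the protein encoded by CG13775 was examined at these 7 genes, which were taken by symbol from the Ensembl annotation of BDGP6 out of 13968 protein-coding genes. A called region was assigned to a gene if its summit lay inside the gene or within 500 bp of one of its transcript starts. By this rule the 7 genes held 12 of the 5862 optimal peaks, the deposited regions kept after filtering by irreproducible discovery rate (IDR), and 42 of the 30000 regions in the relaxed list called on the pooled libraries.

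The data came from chromatin immunoprecipitation and sequencing of embryos 0 to 24 hours old, of both sexes, from a transgenic Drosophila melanogaster line that stably expresses CG13775 with GFP fused to its C terminus. The immunoprecipitation used an antibody against GFP, and all 3 libraries, biological replicates 1, 2 and 4, belong to this one group. No library of an untagged line or of input chromatin is used here, the promoter that drives the transgene is not given in the labels, and the read depth is unknown. Whole embryos were used, so a region bound in few cells and a region bound weakly in many cannot be told apart. The signal of a region is the peak caller's own value, without a stated scale, and it is compared below only within a list, as a value or as the percentage of the list's regions that have a lower signal. The optimal peaks were the 5862 regions of highest signal in the pooled list, and each replicate list of 30000 regions was cut at the same number when a gene is said to be among the top regions of that replicate.

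The 4 regions of highest signal among the 7 genes lay at the start of brm, in the first intron of trx, and in an intron of osa, which held a pair of them. Their summit windows of 101 bp are shown first because they carry the highest signals, followed by the start of osa, the one optimal window of these genes that was not richer in A and T than its surroundings, and by the start of ash1, whose region did not reach the optimal list. All are dm6 reference sequence from RefSeq, on the plus strand, and capitals mark the longest uninterrupted run of A and T bases in each window.
brm start, chr3L:15982973-15983073: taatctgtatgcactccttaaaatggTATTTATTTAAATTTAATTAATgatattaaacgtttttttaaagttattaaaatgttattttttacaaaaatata
osa intron, chr3R:17704370-17704470: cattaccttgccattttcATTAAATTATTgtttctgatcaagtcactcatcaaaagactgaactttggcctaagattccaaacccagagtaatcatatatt
osa intron, chr3R:17700541-17700641: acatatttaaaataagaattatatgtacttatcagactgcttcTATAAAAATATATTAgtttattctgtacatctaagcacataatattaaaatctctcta
trx first intron, chr3R:14283825-14283925: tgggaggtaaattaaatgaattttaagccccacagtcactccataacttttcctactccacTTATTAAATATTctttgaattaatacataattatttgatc
osa start, chr3R:17718499-17718599: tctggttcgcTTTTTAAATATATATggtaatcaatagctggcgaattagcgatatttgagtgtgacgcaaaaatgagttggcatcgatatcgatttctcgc
ash1 start, chr3L:19598894-19598994: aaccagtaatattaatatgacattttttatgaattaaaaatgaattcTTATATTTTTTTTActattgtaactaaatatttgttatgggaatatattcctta

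At gene starts the Brahma complex genes and the histone methyltransferase genes differed in how many carried a peak. An optimal summit lay within 500 bp of a start in 1 of 3 histone methyltransferase genes and in 4 of 4 Brahma complex genes, which makes 5 of 7 genes in all (71.4%), beside 26.2% of all protein-coding genes (3658 of 13968). In the replicates' top regions the histone methyltransferase genes gave 1, 1 and 2 genes (replicates 1, 2 and 4) and the Brahma complex genes gave 4 in each, while 25%, 25.5% and 27.4% of protein-coding genes had such a region in replicates 1, 2 and 4. In the whole pooled list all 7 genes had a region at the start, as did 54% of protein-coding genes. The sets hold 3 and 4 genes that were named with earlier results known, so no test was run between them. The counts apply to these genes only. Among other Brahma complex subunits 4 of 8 genes had an optimal start peak (50%). Among other members of COMPASS-type methyltransferase complexes 5 of 12 had one (41.7%).

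The rank of the strongest start region showed the same split. This is not a separate observation, because the top regions were themselves defined by signal rank. Averaged over the genes of each set, with a gene that had no region counted as 0, the histone methyltransferase genes lay above 55%, 61.3% and 75% of the regions in replicates 1, 2 and 4. The Brahma complex genes lay above 92.9%, 91.6% and 92.5%. The difference, histone methyltransferase minus Brahma, was −28.5 ± 10.3 percentage points (SD, n = 3 replicates) and had the same sign in every replicate. It came from trx and ash1, because trr ranked like the Brahma complex genes other than brm.

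**Figure D1:**
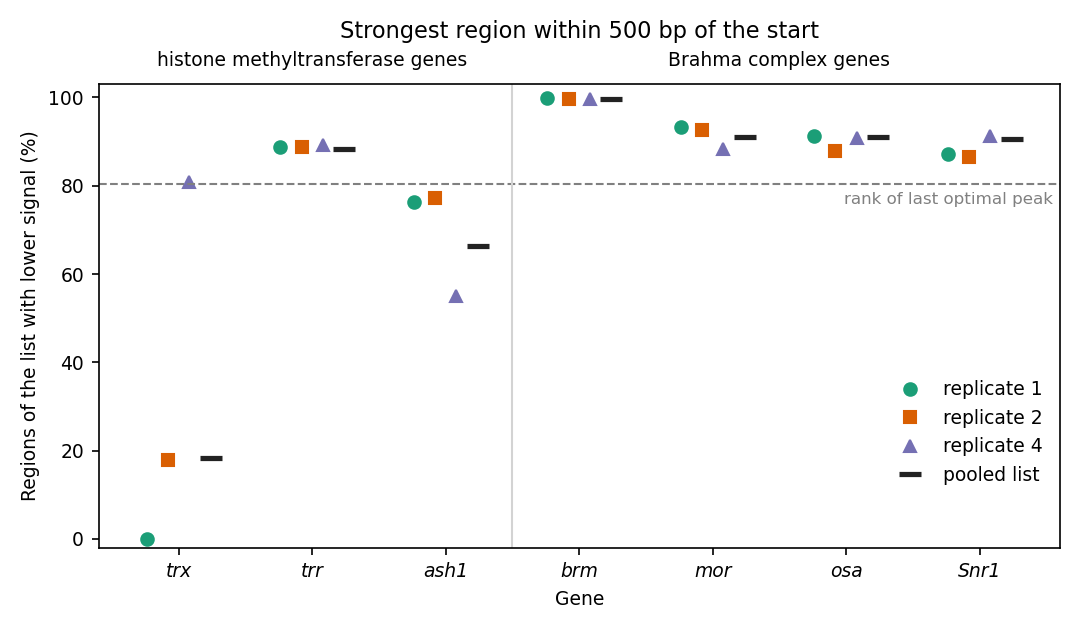
Percentage of the regions in each list with a lower signal than the strongest region within 500 bp of a gene's start, for 3 replicates (coloured symbols) and the pooled list (black dash); a gene without such a region is drawn at 0, and the dashed line marks the rank of the last optimal peak. All points of brm, mor, osa, Snr1 and trr lie above the line, those of ash1 below it, and trx reaches it in replicate 4 only.

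Among the histone methyltransferase genes, trr (FBgn0023518; X, 1881313 to 1889950, minus strand), which encodes a methyltransferase related to mammalian MLL3 and MLL4, was the only one with an optimal start peak. Its signal was 77.4, 51.6 and 120 in replicates 1, 2 and 4, and it exceeded 88.9% ± 0.291 of the regions of a list (SD, n = 3). The 3 libraries therefore placed this region at nearly the same rank, above the limit of the top regions in each. The pooled summit at 1890134 lay 184 bp upstream of trr but 122 bp from the start of the divergent gene mRpL16, a mitochondrial ribosomal protein gene. The nearer start was that of mRpL16 in replicates 1 and 4 and that of trr in replicate 2, so the peak cannot be given to either gene. Of the bound protein-coding genes, 29.1% had a weaker start peak than the 233 of trr. The body of trr held no optimal peak.

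No optimal peak was assigned to ash1 (FBgn0005386; 3L, 19590773 to 19598755, minus strand), which encodes a methyltransferase for lysine 36 of histone H3. A weaker region stood at its start in every list, with a signal of 42.3, 28.2 and 38.4 in replicates 1, 2 and 4 and ranks of 7071, 6830 and 13478. In the pooled list it ranked 10088 with a signal of 93.9, and the weakest optimal peak had 151. The pooled summit was 189 bp upstream of ash1 and 144 bp from the start of Taf6, a TFIID subunit gene on the other strand. In replicates 1 and 4 the strongest summit lay nearer to ash1, 79 bp upstream and 61 bp inside, and in replicate 2 it lay nearer to Taf6. A very strong peak stood at the other end of the gene: the optimal peak of rank 8 (3L, 19590404 to 19590828, signal 3418) had its summit 140 bp beyond the 3′ end of ash1, 109 bp from the start of CG14100. By the rule it does not belong to ash1.

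The start of trx (FBgn0003862; 3R, 14263358 to 14286903, minus strand), which encodes a methyltransferase related to mammalian MLL1 and MLL2, carried little signal in 2 of 3 libraries. Replicate 1 had no region within 500 bp of it, replicate 2 had one of signal 13.3 at rank 24619, and replicate 4 had one of signal 78.4 at rank 5756. Only replicate 4 thus brought the trx start among the top regions, just inside the limit of 5862, and the pooled list ranked it 24488. The annotation gives trx a single transcript start, and the nearest start on the other strand, that of lncRNA:CR45596, is 1326 bp away.

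Of all 7 genes, brm (FBgn0000212; 3L, 15970082 to 15982869, minus strand), which encodes the ATPase of the Brahma complex, had the strongest start peak. Its signal was 579, 356 and 679 in replicates 1, 2 and 4, at ranks 68, 76 and 100, and it exceeded 99.7% ± 0.0555 of each list (SD, n = 3). It was far above the other start peaks of these genes in every library. The optimal peak (15982824 to 15983193, signal 1611, rank 82) was stronger than those of 97.3% of the 3658 protein-coding genes with an optimal start peak, whose median was 335. Its summit lay 154 bp upstream of brm and 112 bp from the start of Arl1, an Arf-like GTPase gene, and the distances were 133 and 133 bp in replicate 2. Arl1 starts 266 bp from brm on the other strand, so the peak filled the space between both genes. Arl1 shares the peak and hence the ranks. The next protein-coding genes outside the gene lists by Euclidean distance between percentages over the 3 replicates were CG13016 and CG13018, with ranks 69, 77 and 113 (distance 0.0436), both with the same ranks.

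The start peaks of mor, osa and Snr1 were of middling strength and close to one another. The signal of mor (FBgn0002783; 3R, 15968134 to 15972913, minus strand), a SWI3-type core subunit, was 113, 70.7 and 113 in replicates 1, 2 and 4. The signal of osa (FBgn0261885; 3R, 17687818 to 17718350, minus strand), the ARID-domain subunit that marks one form of the complex, was 94.5, 48.1 and 134. That of Snr1 (FBgn0011715; 3R, 5470926 to 5472754, plus strand), the SNF5-type core subunit, was 69.7, 43.7 and 140. All 3 genes were among the top regions in every replicate. They exceeded 91.4% ± 2.74, 89.9% ± 1.85 and 88.3% ± 2.66 of the regions for mor, osa and Snr1 (SD, n = 3 each), and trr exceeded 88.9% ± 0.291, so the order of these 4 genes is within the spread between libraries. Replicate 1 ranked mor highest of the 4 and replicate 4 ranked Snr1 highest. In the pooled list their signals were 283, 284 and 274 for mor, osa and Snr1, below the median of 335 over bound protein-coding genes.

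Most of these start peaks lay in the short gap between divergent genes. A start on the other strand within 1000 bp upstream was present at 5 of 7 genes, trr, ash1, brm, mor and Snr1, at distances of 266 to 385 bp, and 4 of those 5 had an optimal start peak. Among protein-coding genes, 46.1% of those with such a neighbour had an optimal start peak and 13.9% of those without. The partner of mor is Hel89B, a helicase gene 385 bp away, whose start was nearer to the summit in replicate 1 only. The partner of Snr1 is mRpL44, another mitochondrial ribosomal protein gene, 290 bp away, and the summits lay nearer to Snr1 in every list, 76, 47 and 23 bp upstream of it in replicates 1, 2 and 4. The start of osa has no such partner, since Pxt begins 1104 bp away, and its summits were 250, 257 and 211 bp upstream of osa. Of the 5 optimal start peaks, 3 (mor, osa and Snr1) had the gene itself as the nearest start in the pooled list. For mor the margin was narrow, 183 bp to mor and 202 bp to Hel89B, and it turned round in replicate 1. Like those of trr and brm, the mor peak cannot be given to either gene.

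**Figure D2:**
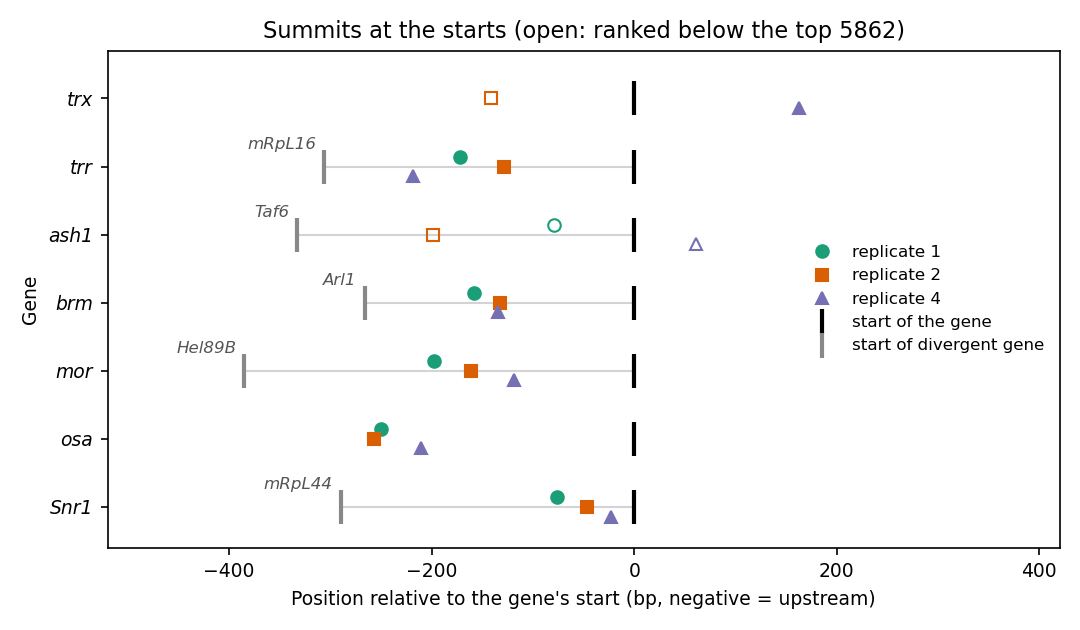
Position of the strongest start summit of each gene in replicates 1, 2 and 4, in bp from the gene's start with negative values upstream; black bars mark the gene's start, grey bars the start of a divergent gene within 500 bp, and open symbols regions ranked below 5862. The summits of trr, brm, mor and Snr1 fall between the divergent starts in every replicate, and trx has no region in replicate 1.

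Inside the genes, optimal peaks were found in trx and osa, and the other 5 genes held no optimal peak in the body. A body peak here has its summit inside the gene and more than 500 bp from its own start. There were 5 optimal body peaks in histone methyltransferase genes, all in trx, and 2 in Brahma complex genes, both in osa, so each set is represented by 1 gene. Among the top regions of replicates 1, 2 and 4, trx held 3, 5 and 5 body regions and osa held 3, 2 and 4, which is the same number in replicate 1. In the whole pooled list the histone methyltransferase genes held 13 body regions and the Brahma complex genes 21, so the order of the sets turned round with the list used. These are by far the longest of the 7 genes, at 23546 and 30533 bp, and the next is brm with 12788 bp. Per 10 kb of gene, trx held 2.12 optimal body peaks and osa 0.655, and the median over 7436 protein-coding genes of at least 2 kb was 0, with 14.9% of them holding any. These densities depended on the peaks counted: trx held 1.27 per 10 kb in the 2931 optimal peaks of highest signal, and osa held 0.328 when peaks within 500 bp of the start of any gene were left out. Among the 1020 protein-coding genes of at least 20 kb, a comparison chosen after the values were seen, 48.1% held an optimal body peak and 8.24% held 5 or more. The density of trx was above that of 98.7% of these long genes and the density of osa above that of 84.2%, counting all optimal body peaks.

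The strongest trx peak (14283670 to 14284075, signal 1469, rank 105) lay 3028 bp inside the gene, in its first intron. Its signal was 510, 336 and 634 in replicates 1, 2 and 4, at ranks 99, 97 and 121. The first intron, which spans 6667 bp, also held peaks at 3830 bp (signal 294), 1125 bp (170) and 7045 bp (163) from the start. A further peak lay in the second intron, 8851 bp from the start, with a signal of 546. Ranks of that peak were 1145, 1345 and 739 in replicates 1, 2 and 4. The 2 weakest trx peaks were the least stable: the peak at 1125 bp was among the top regions of replicate 2 only, with ranks of 6731, 3664 and 7153, and the peak at 7045 bp was among those of replicates 2 and 4, with ranks of 6903, 5147 and 5202. All 12 pooled body regions of trx lay within 10380 bp of the start, and none of these fell in the 3′ part of the gene. Replicate 1 also held a weak region 14275 bp from the start, at rank 26562.

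Both optimal body peaks of osa lay in its intron 4, which spans 8067 bp. The stronger (17704229 to 17704596, signal 1666, rank 72) was 13930 bp inside the gene, with a signal of 572, 344 and 753 in replicates 1, 2 and 4 and ranks of 74, 91 and 74. The other (17700362 to 17700781, signal 1469, rank 106) was 17759 bp inside, with 449, 275 and 749 and ranks of 144, 164 and 77. Each was stronger than the start peak of osa in every library. The nearest annotated starts are those of 2 non-coding genes inside osa, lncRNA:CR46035 at 725 bp from the stronger summit and lncRNA:CR46036 at 150 bp from the weaker one. The weaker peak is thus also a start peak of lncRNA:CR46036. With the limit set at the rank of this peak, 106, 5 of 1020 protein-coding genes of at least 20 kb (0.49%) had a body peak of that rank or better, namely osa, trx, Tlk, simj and ush. Only osa had 2 of them (0.098%). This limit was taken from osa, so osa passes it by construction.

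**Figure D3:**
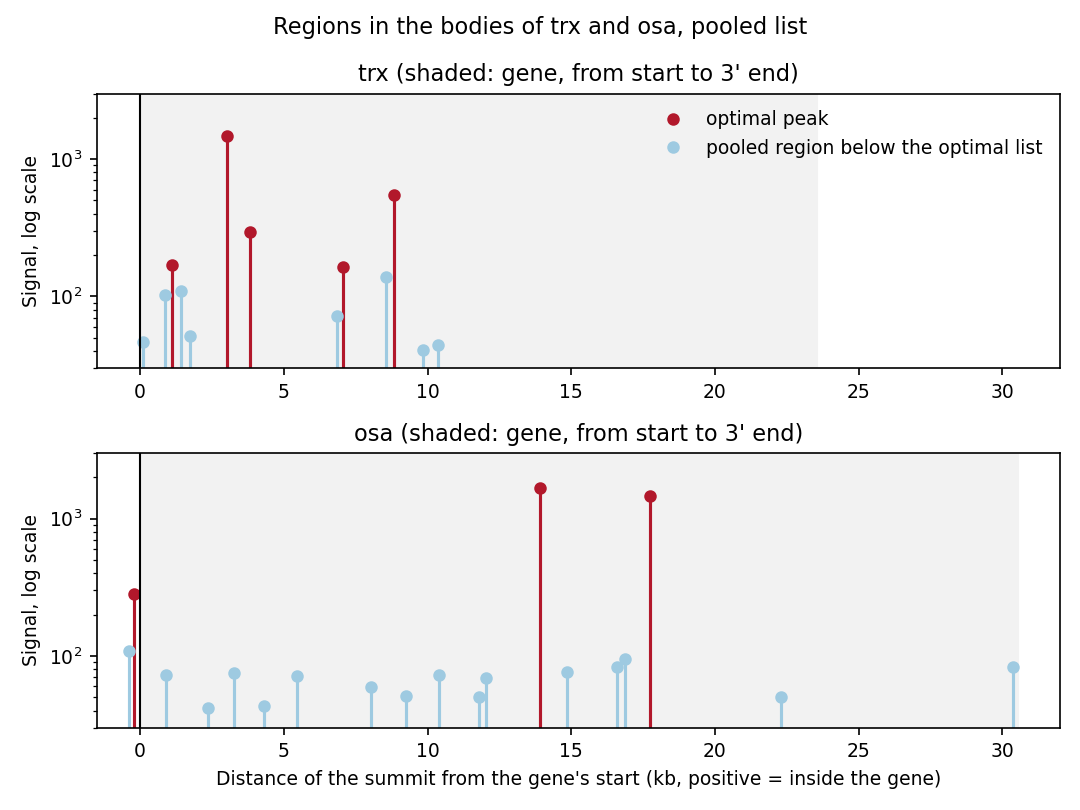
Signal on a log scale of every pooled region assigned to trx (top) and osa (bottom) against the distance of its summit from the gene's start in kb; red points are optimal peaks, blue points regions ranked below them, and grey shading spans the gene. The 5 trx peaks lie within 8851 bp of the start, whereas the 2 strong osa peaks lie 13930 and 17759 bp inside and the third marks the start.

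Below the optimal threshold osa held many weak regions. The pooled list placed 17 body regions in osa and 12 in trx, or 5.57 and 5.1 per 10 kb, against a median of 1.64 over protein-coding genes of at least 20 kb. By replicate, osa held 16, 14 and 25 regions and trx held 12, 11 and 14 in replicates 1, 2 and 4, start regions included. Apart from both strong peaks, no osa body region in the pooled list exceeded a signal of 95.4. The body of brm held 2 weak pooled regions (signals 119 and 46.3) in an intron of 6873 bp that also holds other genes, and the weaker lay 23 bp from the start of one of them, CG17027. Those of mor (47.2 and 47) and trr (42.3) lay in coding exons, and ash1 and Snr1 held none.

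The optimal peaks of these genes overlapped top regions of the replicates in a share near that of all optimal peaks. In all 3 replicates, 10 of 12 overlapped a top region by at least 1 bp, against 73.3% of all optimal peaks, and the exceptions were the 2 weak trx peaks described above. The optimal peaks come from these same libraries, so the overlap is not independent of them. Over the 36 pairs of optimal peak and replicate region, the summit moved by a median of 21 bp and at most 104 bp.

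The summit windows of these genes were rich in A and T, in introns as well as at starts. In the 12 optimal windows of 101 bp, A and T made up a median of 71.8% of bases (range 62.4 to 85.1). The median over all 5862 optimal windows was 67.3% (quartiles 59.4 and 73.3), and over optimal peaks down to rank 106 it was 71.3%. The value of these genes was near that of the peaks down to this rank, although most of the 12 peaks ranked lower, from 955 to 5355. The share was 85.1% at the brm start, more than in 99.5% of optimal windows, and 80.2% at the trx peak in the second intron. Compared with the mean of the windows centred 300 bp to either side, 11 of 12 were higher, with a median difference of 22.3 percentage points. Over all optimal peaks 77.9% were higher than their flanks, with a median difference of 11.4 points. Down to rank 106 the median difference was 17.6 points. The exception was the osa start, with 62.4% at the summit and 66.3% in the flanks. The weak ash1 region had 83.2%, which is above 98.5% of optimal windows. The weak pooled region at the trx start had 67.3%, above 48.5% of them. A relation between the share of A and T and the signal was not tested. Base composition was examined after sequences had been seen, and introns and promoters differ in composition, which was not adjusted for.

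**Figure D4:**
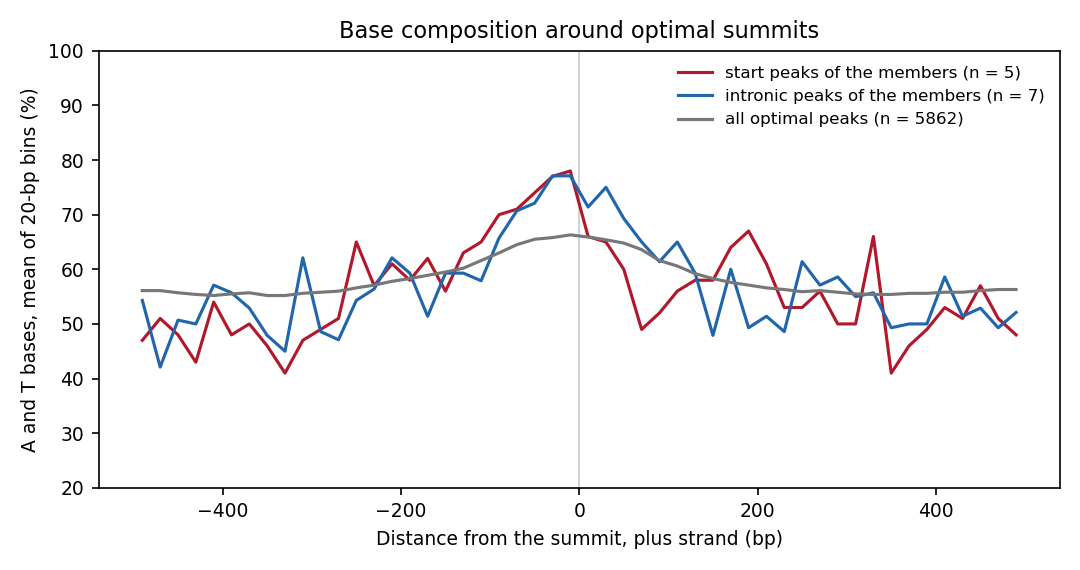
Mean percentage of A and T bases in 20-bp bins against distance from the summit on the plus strand, for the 5 start peaks (red) and 7 intronic peaks (blue) of the 7 genes and for all 5862 optimal peaks (grey). In the bin just left of the summit the means are 78%, 77.1% and 66.3% for start, intronic and all optimal peaks. In the next bin, which begins at the summit, they are 66%, 71.4% and 65.9%. In the bin centred 70 bp to the right they are 49%, 65% and 63.6%, so the start peaks are not higher throughout.

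Short DNA words were counted at the 12 summits, which are too few to set the counts apart from the shares over all optimal peaks. Each window of 101 bp was searched for 6 words on both strands. The DNA replication-related element TATCGATA, bound by DREF, was in 0 of 12 windows, and in 2.34% of all optimal windows. Its core CGATA, which is part of the same word and is also recognised by BEAF-32, was in 1 of 12, the osa start, and in 17.1% of all. The GAGA word GAGAG was in 1 of 12, the weaker intronic peak of osa, and in 9.28% of all. The core promoter word GGTCACAC (motif 1) was in 0 of 12 and in 1.3% of all, the Zelda word CAGGTAG in 0 of 12 and in 0.426% of all, and TGCGGATG, a word taken from earlier results of these data, in 0 of 12 and in 1.81% of all. Within 100 bp of the summit TATCGATA was in 1 of 12 (4.21% of all), CGATA in 3 (29.9%) and GAGAG in 3 (20.4%), and the other words were in none of the 12.

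In 4 related gene lists, 41.7% to 52.9% of the genes had an optimal start peak. The share was 26.2% over all protein-coding genes and 46.1% over those with a divergent start within 1000 bp. Such a divergent start was present at 6 of 12, 6 of 8, 11 of 14 and 9 of 17 genes of the lists, in the order given below, and its part in these shares was not tested. Of the genes for other members of COMPASS-type methyltransferase complexes, 5 of 12 had an optimal start peak (41.7%), led by Lpt (signal 475), a partner of trr, Rbbp5 (467) and Dpy-30L1 (385), and the Rbbp5 peak lay nearer to the start of eRF1. Of the other Brahma complex subunits, 4 of 8 had one (50%), led by the actin gene Act5C (541), Bap60 (524, nearer to CG12096) and Brd7-9 (380). Of 14 other trithorax group and remodelling genes, 7 had one (50%), led by the remodeller gene Chd1 (798, nearer to Bem46), Trl (617), which encodes GAGA factor, and skd (581, nearer to Pdss2), a Mediator subunit gene. Of 17 Polycomb group genes, which act against the trithorax group, 9 had one (52.9%), and ph-p (2084) and E(z) (1203) were followed by Su(z)12 (848). In the replicates' top regions, the COMPASS list gave 4, 5 and 7 genes and the other Brahma subunits 3, 3 and 5. The other trithorax genes gave 6, 5 and 9 and the Polycomb genes 7, 7 and 10. Replicate 4 gave the most in each list. It also gave the most over all protein-coding genes (25%, 25.5% and 27.4% in replicates 1, 2 and 4). Optimal body peaks were found in 7 of the 14 other trithorax and remodelling genes and in 3 of the 17 Polycomb genes, and in none of the COMPASS partners and other Brahma subunits, beside 8.25% of all protein-coding genes, 14.9% of those of at least 2 kb and 48.1% of those of at least 20 kb. The share rises with gene length, for which the lists were not matched.

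**Figure D5:**
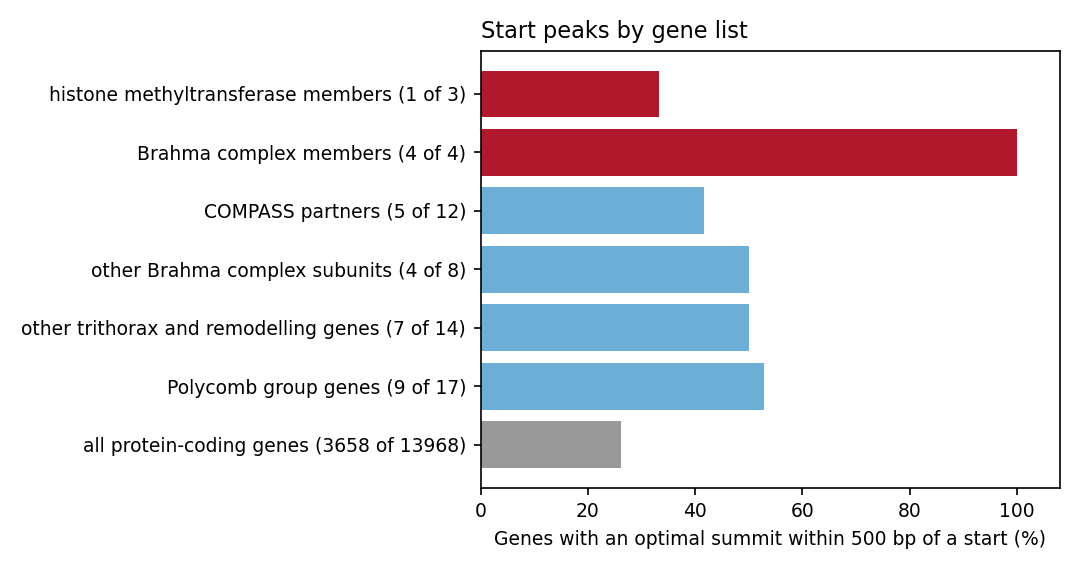
Percentage of genes with an optimal summit within 500 bp of a start, for the histone methyltransferase and Brahma complex genes described here (red), 4 related gene lists (blue) and all protein-coding genes (grey), with counts in the labels. The 4 related lists lie between 41.7% and 52.9%, and all protein-coding genes at 26.2%.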

How the data were processed

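The authors deposited narrowPeak lists on dm6 and dm3, per the records that accompany each library: relaxed lists for each replicate and for the pool, meant as IDR input, and the optimal peaks that IDR kept. The deposited signal value of each region is the peak caller's own. Per the labels, a single control experiment, of unstated kind, is named for all 3 libraries; it was not analysed here. The aligner, the peak caller and their versions are not given in the sources used here. Sonicated fragments were 200 to 800 bp long, per the labels.

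The dm6 lists were used, with the Ensembl annotation of BDGP6 (release 115) without transposable elements (18277 genes) and the Release 6 genome sequence. All regions lay within the chromosome lengths of that genome. The dm3 lists were not used. Summits were taken as the start plus the offset in column 10. Ranks followed the signal in column 7. Lists were compared by counts, without tests, since there is 1 group and the members and gene lists were chosen with earlier results of these data known. Alternatives covered the distance, the transcript starts, the threshold, the summit, the overlap and each replicate left out. Named genes were the 7 genes, neighbours with a nearer start, the 3 highest by signal of each list, and the 3 genes nearest to brm in replicate percentages. Tlk, simj, ush, CG14100, CG17027, Pxt, lncRNA:CR45596, lncRNA:CR46035 and lncRNA:CR46036 were named after their values were seen. Of 51 listed symbols, 50 matched directly and hcf as Hcf. The assignment and word searches recovered all planted summits and words in simulated data. Python 3.11.15, numpy 2.4.6 and pandas 2.3.3 were used.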

Additional observations from a re-analysis of the deposited data

How the results depend on the processing

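The count of genes with an optimal start peak (5 of 7) fell to 3 when a peak was given only to the gene with the nearest start. That rule removed trr and brm, and it kept mor by a narrow margin (183 bp, against 202 bp to Hel89B). The histone methyltransferase count (1) became 0 under the nearest-start rule and in the 2931 optimal peaks of highest signal, and 3 in the whole pooled list. The Brahma complex count stayed within 1.5 times of 4 under every alternative run. Counting only summits inside the genes left 7 of the 12 optimal peaks. Body density changed to 1.27 (upper part of the optimal list) and 5.1 (pooled list) for trx, and to 0.328 (away from the starts of all genes) and 5.57 (pooled list) for osa, per 10 kb. Counts and densities were taken as unmoved within 1.5 times of the reported value, mean ranks within 1 SD of the 3 replicates, and the A and T share within 1 SD of the windows. By these limits 76 of 94 recomputed values were unmoved and none reversed. With 3 replicates, leaving 1 out cannot shift a mean rank by as much as 1 SD. Mean ranks and rank differences without 1 replicate were therefore unmoved by construction, and their place in this count says nothing about their stability. The limit is wide for the trx start, whose SD is 42.4: its mean rank was above 32.9% of regions, and above 8.97% without replicate 4, 49.4% without replicate 1 and 40.4% without replicate 2. The ranking by p-value was not run, because that column holds no values. No depth is known, so what a missing region means at these starts was not tested.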
